A study of Mus musculus with 6 samples.

Results

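Chondroitin sulfate and heparan sulfate are long sugar chains carried by proteoglycans, and 38 genes of their synthesis were followed in mouse chondrocytes with and without a knockout of Mfn2. The 38 genes were fixed by name and fall into 6 steps: 5 genes that supply sulfate and sugar, 6 that build the linker to the protein, 8 of the chondroitin chain, 7 of chondroitin sulfation, 5 of the heparan chain and 7 of heparan sulfation and desulfation. All 38 were found among the 23867 genes of the count table and all 38 passed the filter on low counts, along with 15028 genes in all. The RNA came from cells labelled as chondrocytes, the cells that make cartilage matrix, in 6 bulk sequencing libraries. Of these, 3 carry the genotype label MFN2wt (wild type) and 3 the label MFN2Col2a1-/- (knockout), which joins Mfn2, the gene of a mitochondrial outer membrane fusion protein, with Col2a1, the gene of the main cartilage collagen. The data columns name the knockout libraries CRE1 to CRE3, and these names are used here. Strain, age, treatment, and how Col2a1 enters the knockout are not given in the labels. Whether each library is its own animal or culture is also not stated, and the p-values then cover only the spread among the libraries.

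In cartilage, the chondroitin sulfate chains on aggrecan hold water and give the tissue its resistance to compression, while heparan sulfate on cell surfaces and basement membranes binds growth factors such as FGFs, WNTs and hedgehog proteins. Both chains start on the same sugar linker attached to a serine of the core protein. The branch is set by the next sugar: N-acetylgalactosamine starts a chondroitin chain and N-acetylglucosamine a heparan chain. The chains are then lengthened by alternating sugars and sulfated with an activated sulfate donor that cells make from imported sulfate. Inherited defects in several of these genes, among them Slc26a2, Papss2, Chst3, Ext1 and Ext2, cause skeletal diseases.

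Each knockout library held 31481779 to 37814723 counts and each wild-type library 39267487 to 40152687. Mfn2 was lower in each knockout library, at 60.0 ± 3.78 CPM (library-size-scaled counts with TMM factors, SD, n = 3) against 107 ± 0.937 CPM (SD, n = 3). Over all 15028 tested genes, 30.7% were called higher and 32.1% lower in the knockout by the test given below. All 8 chondrocyte markers fell, with a summed level of 2777 to 2899.9 CPM in the knockout and 8021 to 8214 CPM in the wild type, and Col2a1 itself fell from 3397 to 509 CPM. All 12 macrophage markers fell, from a summed 2951 to 2979 CPM to 325 to 337 CPM, Lyz2 among them (log2 fold change −2.94). All 6 markers of dividing cells fell, from 238 to 249 CPM to 32.5 to 38.8 CPM summed, with Top2a at −2.38. Of 7 tested fibroblast markers, 4 rose and 2 fell, and their summed level was 16191 to 17337 CPM in the knockout against 11819 to 12056 CPM, with Col3a1 at 0.72. Of 6 dissociation-response genes, 3 rose and 3 fell. Their values ran from −1.17 to 3.31, the highest being that of Ier3, around a middle value (median) of −0.015. Among the rarer types, all 5 tested osteoblast markers (Ibsp at −3.63) and 4 of 5 markers of smooth muscle and pericytes (Pdgfrb at −0.54) fell. Of 3 tested markers of neutrophils and lymphocytes, Ptprc fell (−4.55), S100a8 rose (3.50) and 1 was not called. Of 4 tested endothelial markers, Pecam1 rose (1.78, from 1 to 11 counts to 10 to 30 counts), Kdr fell (−2.50) and 2 were not called, Tek among them (−0.14), and the rise of Pecam1 was not called without CRE2 (1.49) or wild-type library 1 (1.27). Of 4 skeletal muscle markers, Mylpf rose (0.63) and 3 were not called, among them Acta1 (0.43), which was called higher without CRE2 (0.75, edgeR adjusted p = 2.53e-04). Of 3 tested adipocyte markers, Fabp4 rose (1.73) and 2 were not called. Thy1, Pdgfra, Col1a1, S100a8, Pecam1, Kdr and Mylpf were named after their values were seen. None of these listed markers was at 0 in all 6 libraries, and the part of these cell types in the results on sulfated chains was not tested. In bulk RNA, fewer cells of a type and less RNA per cell cannot be told apart.

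Of the 38 genes, 14 rose and 20 fell in the knockout and 4 were not called (edgeR's quasi-likelihood test, threshold of 0.05 on the Benjamini-Hochberg adjusted p). Over all tested genes 62.7% were called, 30.7% upward and 32.1% downward, against 89.5% of the 38, 36.8% upward and 52.6% downward. The median log2 fold change of the 38 genes was −0.15, beside −0.021 over all tested genes. Most of these changes were small: 27 of the 34 called genes changed less than 2-fold, and the median size of a called change was 0.35 on the log2 scale, beside 0.55 over all called genes. Of the 38, 7 changed at least 2-fold, against 19.7% of all tested genes: Sulf1, Ext1, Ugdh, Chst3 and Hs3st1 upward (5 genes, 7.73% of all) and Papss2 and Slc26a2 downward (2 genes, 12% of all). The groups did not overlap in 35 of the 38, with the knockout higher in 14 and lower in 21, beside 67.1% of all tested genes (32.3% higher and 34.8% lower). By step, the linker, chondroitin chain, chondroitin sulfation and supply steps each held more falls than rises, and the heparan chain and heparan sulfation steps each held more rises than falls. The margin was narrow in the heparan chain (3 rises, 2 falls) and supply steps (2 rises, 3 falls). Of 6 other tested linker and heparan enzymes, outside the 38, 1 rose and 3 fell. Over the same libraries the summed chondrocyte markers stood at 0.348 times and the summed macrophage markers at 0.111 times their wild-type level.

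Scaling matters for the small changes. With total counts alone, without TMM factors, the median over all tested genes shifted by −0.21 on the log2 scale, and 6 of the called genes changed by less than that (Xylt1, Chpf2, Dse, Chst14, Ndst2 and Hs2st1). Then 12 of the 38 genes rose and 24 fell, while rises were 26.8% of the calls over all genes, 38% with upper-quartile factors and 48.9% with TMM factors. The ratios between enzymes within a library, given below for 13 pairs, do not depend on this scaling.

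**Figure D1:**
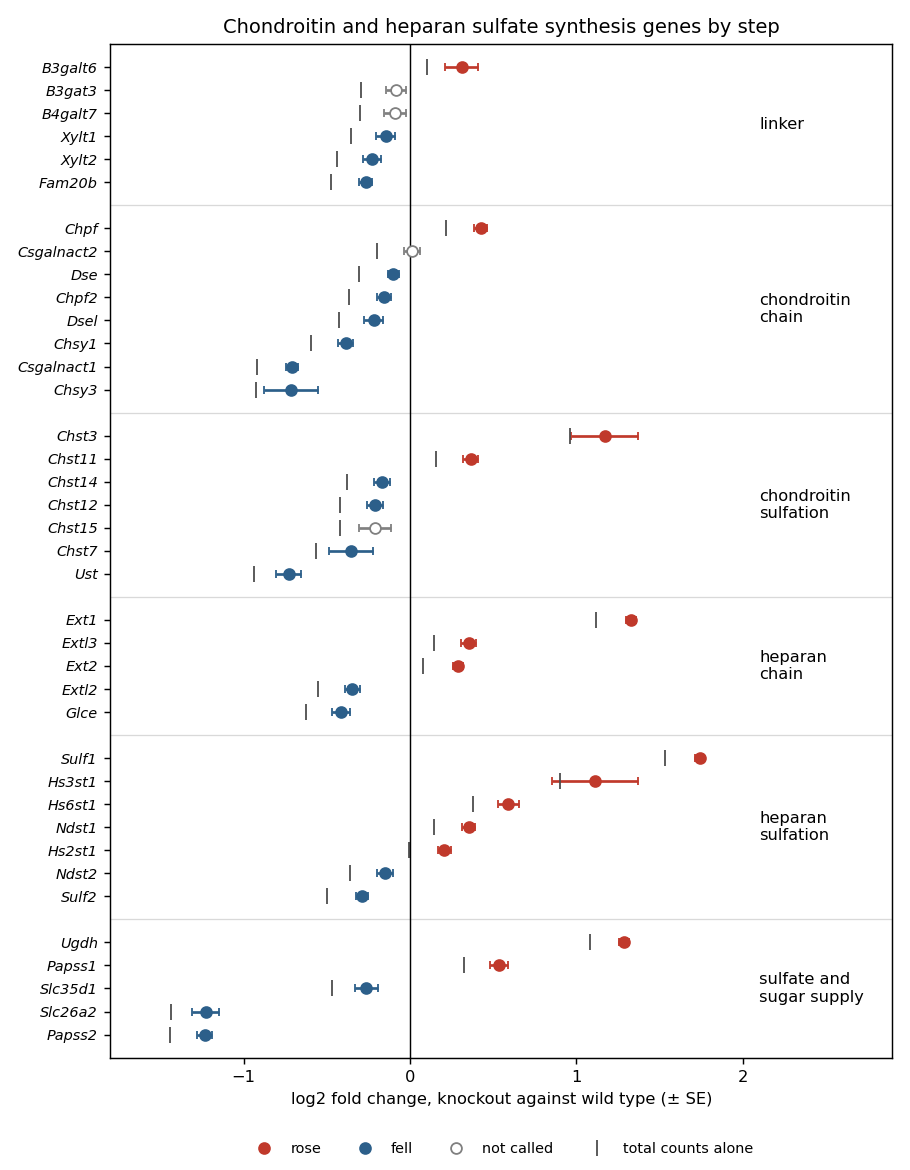
Log2 fold changes (knockout against wild type, x axis, ± SE from edgeR) of the 38 genes, grouped by step. Red points rose, blue points fell, open points were not called, and the vertical ticks give the value with total counts alone, which lies lower for each gene. Sulf1 (1.74), Ext1 (1.33) and Ugdh (1.29) are at the right and Papss2 (−1.23) and Slc26a2 (−1.23) at the left.

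Of the 5 supply genes, Ugdh and Papss1 rose and Slc26a2, Papss2 and Slc35d1 fell. Ugdh oxidizes UDP-glucose to UDP-glucuronic acid, a building block of both chains. It stood at 764, 761 and 732 CPM in CRE1, CRE2 and CRE3 and at 312, 300.3 and 311 CPM in wild-type libraries 1, 2 and 3. Each knockout library was more than 2-fold above each wild-type library, and the fitted rise was 2.44-fold (log2 fold change 1.29, SE 0.029, edgeR adjusted p = 4.24e-15). Slc26a2, the sulfate transporter of the plasma membrane, stood at 18.1, 18.7 and 16.0 CPM in the knockout and at 45.8, 36.6 and 41.4 CPM in the wild type. The groups did not overlap and it fell 2.34-fold (−1.23, SE 0.082, edgeR adjusted p = 2.56e-09).

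Papss1 and Papss2 encode alternative forms of the enzyme that makes PAPS, the sulfate donor of all the sulfotransferases described here. They moved apart. Papss2, the form with a known role in cartilage, stood at 40.3, 40.1 and 39.1 CPM in the knockout and 96.8, 90.2 and 94.0 CPM in the wild type, a fall of 2.35-fold (−1.23, SE 0.044, edgeR adjusted p = 1.13e-12). Papss1 stood at 77.5, 70.7 and 66.5 CPM in the knockout and 51.1, 49.9 and 47.2 CPM in the wild type, a rise of 1.45-fold (0.53, SE 0.056, edgeR adjusted p = 5.20e-07). Per length (FPKM), Papss2 was above Papss1 in each wild-type library, with ratios of 1.64, 1.56 and 1.72. In the knockout the order was turned, with ratios of 0.449, 0.490 and 0.508. Slc35d1, which carries UDP-sugars into the endoplasmic reticulum, fell slightly (−0.26, SE 0.072, edgeR adjusted p = 0.00510). As a share of the summed FPKM of the 5 supply genes, Ugdh went from 70.5% ± 0.613 to 88.9% ± 0.355, Papss2 from 14.0% ± 0.124 to 3.08% ± 0.034 and Slc26a2 from 6.13% ± 0.525 to 1.35% ± 0.0789 (SD, n = 3 in each group).

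The upstream sequences of Ugdh, Papss1 and Papss2 are shown because these supply genes moved in different directions. Each is the 250 bases before the RefSeq start (the more upstream of 2 listed starts for Papss1 and Papss2), on build GRCm38.p6, which precedes the GRCm39 build named for the counts. Ugdh lies at chr5:65435843-65436092 on the minus strand, Papss1 at chr3:131564518-131564767 and Papss2 at chr19:32595465-32595714, both on the plus strand. Capitals mark matches on either strand to the GC box GGGCGG, the cores ACGTG and GCGTG of the hypoxia response element, the AP-1 site TGANTCA and the CCAAT box.
Ugdh: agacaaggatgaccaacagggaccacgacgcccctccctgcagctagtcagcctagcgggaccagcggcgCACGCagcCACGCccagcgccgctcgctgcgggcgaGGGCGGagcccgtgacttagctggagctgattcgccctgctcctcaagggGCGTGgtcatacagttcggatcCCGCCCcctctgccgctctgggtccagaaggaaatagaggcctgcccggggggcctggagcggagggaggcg
Papss1: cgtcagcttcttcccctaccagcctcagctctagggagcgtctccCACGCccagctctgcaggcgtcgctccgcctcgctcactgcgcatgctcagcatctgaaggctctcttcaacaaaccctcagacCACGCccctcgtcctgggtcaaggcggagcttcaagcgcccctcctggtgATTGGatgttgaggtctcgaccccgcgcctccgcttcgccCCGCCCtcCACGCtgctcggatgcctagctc
Papss2: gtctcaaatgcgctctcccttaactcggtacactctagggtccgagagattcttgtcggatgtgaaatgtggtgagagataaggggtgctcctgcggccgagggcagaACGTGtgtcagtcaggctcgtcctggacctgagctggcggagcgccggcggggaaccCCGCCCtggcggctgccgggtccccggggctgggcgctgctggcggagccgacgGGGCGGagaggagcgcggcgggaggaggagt
Ugdh held 2 GC boxes and 3 GCGTG cores, Papss1 held 1 GC box, 3 GCGTG cores and 1 CCAAT box, and Papss2 held 2 GC boxes and 1 ACGTG core. Neither Ugdh nor Papss1 had ACGTG in this window, and none of the windows printed had an AP-1 match. RefSeq windows were listed for 30 of the 38 genes, with no entry for Xylt1, Csgalnact1, Chsy3, Ext1, Extl3, Ndst1, Sulf1 and Slc26a2. A GC box was found in 24 of the 30 genes, 7 of 10 that rose and 15 of 16 that fell, and in 32.7% of 32851 windows of all genes. GCGTG was found in 7 of 10 that rose and 8 of 16 that fell (28.2% of all windows), and ACGTG in 2 of 10 and 6 of 16 (16.6%). A CCAAT box was found in 2 of 10 that rose and 9 of 16 that fell (33.8%), and the AP-1 site in none of them, in 1 gene that was not called, Csgalnact2, and in 6.75% of all windows. Windows of these genes were richer in G and C, with a median of 65.2% against 52.4%, and 7 of the 30 genes had 2 windows each. A gene counted if any of its windows matched, while the shares over all genes are per window. The counts by gene are therefore raised beside those shares. These matches are letters in a window and not evidence of binding.

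**Figure D2:**
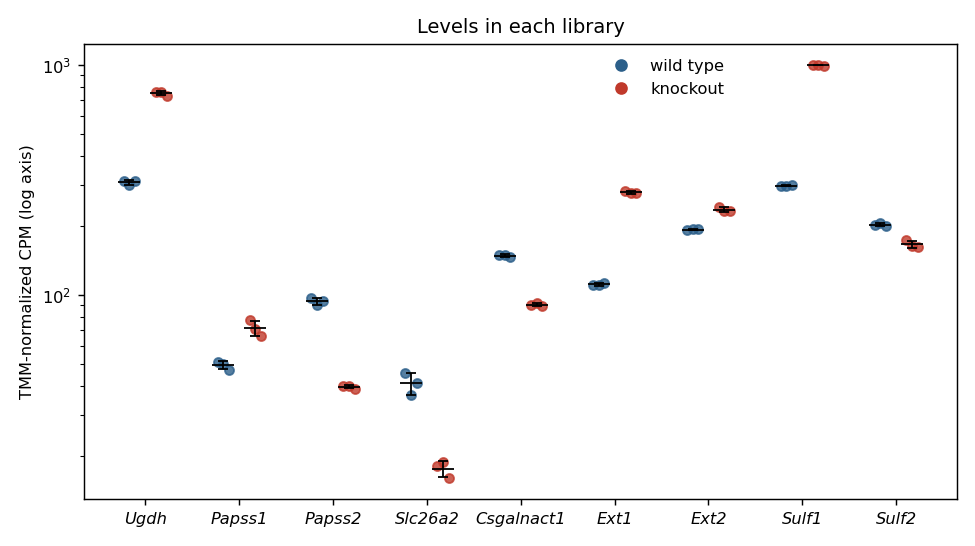
TMM-normalized CPM (log axis) of 9 genes in each library. Blue points are the 3 wild-type libraries, red points the 3 knockout libraries, and black bars the mean and SD. Ugdh, Papss1, Ext1, Ext2 and Sulf1 are higher in all 3 knockout libraries and Papss2, Slc26a2, Csgalnact1 and Sulf2 lower.

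The linker step changed little. The linker, made of xylose, a pair of galactoses and glucuronic acid, is assembled in that order by Xylt1 or Xylt2, B4galt7, B3galt6 and B3gat3, and Fam20b phosphorylates the xylose. Of the 6 genes, 3 fell and 1 rose, and the largest fall was that of Fam20b. It stood at 103, 97.3 and 101 CPM in the knockout and 121, 124 and 118 CPM in the wild type, a fall of 1.20-fold (log2 fold change −0.27, SE 0.039, edgeR adjusted p = 2.00e-05). The groups did not overlap. Xylt2 fell (−0.23, SE 0.054), with no overlap, and Xylt1 fell by 0.14 with overlapping groups (edgeR adjusted p = 0.0373), since CRE3 at 34.8 CPM lay above wild-type library 3 at 34.6 CPM. The call of Xylt1 was lost in 7 of 18 other settings, among them DESeq2 (adjusted p = 0.130) and leaving out CRE2 (edgeR adjusted p = 0.214), CRE1 (0.0561) or wild-type library 1 (0.0893) or 2 (0.152). The ratio of Xylt1 to Xylt2, the alternative enzymes that start the linker, was 1.09 ± 0.0972 in knockout and 1.02 ± 0.0561 in wild-type libraries (exact permutation p = 0.50, adjusted p = 0.50, n = 3 in each group). B3galt6 rose from 7.81, 8.01 and 8.63 CPM in the wild type to 11.1, 9.61 and 9.71 CPM (0.31, SE 0.099, edgeR adjusted p = 0.0126). This rise was not called with upper-quartile factors (edgeR adjusted p = 0.0628), with total counts alone (0.367) or without CRE1 (0.0518). B4galt7 (−0.089, adjusted p = 0.271) and B3gat3 (−0.083, adjusted p = 0.227) were not called in edgeR, and were called lower under either of those scalings.

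Genes of the chondroitin chain fell in 6 of 8 cases, Chpf rose and Csgalnact2 was not called. Csgalnact1 and Csgalnact2 add the N-acetylgalactosamine that commits the linker to chondroitin. Csgalnact1 stood at 90.2, 92.2 and 89.4 CPM in the knockout and at 149, 149 and 146 CPM in the wild type, a fall of 1.63-fold (log2 fold change −0.71, SE 0.035, edgeR adjusted p = 6.54e-11). The groups were far apart and each was tight. Csgalnact2 stood at 72.0 to 81.0 CPM in the knockout and 72.7 to 76.8 CPM in the wild type (0.0094, SE 0.048, edgeR adjusted p = 0.877). With total counts alone it was called lower (−0.20, edgeR adjusted p = 0.00199). Within a library the FPKM ratio of Csgalnact1 to Csgalnact2 was 0.820 ± 0.0572 in knockout and 1.35 ± 0.043 in wild-type libraries. Per length, Csgalnact1 was thus the higher in each wild-type library and the lower in each knockout library. This change of order rests on the gene lengths behind the FPKM values. In CPM, Csgalnact1 stayed the higher in each knockout library too.

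The chain is lengthened by the chondroitin synthases Chsy1 and Chsy3 with the polymerizing factors Chpf and Chpf2. Chsy1 stood at 78.6, 75 and 70.4 CPM in the knockout and 98.4, 99.3 and 94.9 CPM in the wild type (log2 fold change −0.39, SE 0.045, edgeR adjusted p = 1.93e-06). Chsy3 was far rarer, with 91, 167 and 97 counts in the knockout and 237, 274 and 271 counts in the wild type (−0.71, SE 0.160, edgeR adjusted p = 0.00116). Both genes were lower in all knockout libraries, and CRE2 held the highest Chsy3 value of its group. Chpf went the other way, from 69.6, 72.2 and 71.9 CPM in the wild type to 94.3, 96.6 and 96.0 CPM in the knockout (0.42, SE 0.039, edgeR adjusted p = 1.08e-07), while Chpf2 fell by 0.15 (edgeR adjusted p = 0.00471). The call of Chpf2 was lost without CRE2. The FPKM ratio of Chpf to Chpf2 was 2.1, 2.38 and 2.26 in the knockout against 1.5, 1.51 and 1.5. Dse and Dsel, the epimerases that turn chondroitin into dermatan sulfate, fell by 0.10 and 0.22, and the smaller fall, that of Dse, was lost without CRE2. Dse was the most abundant gene of this step per length in both groups, at 40.1 FPKM in the knockout and 49.6 FPKM in the wild type, with 29.9% ± 0.661 and 29.3% ± 0.0424 of the step's summed FPKM (SD, n = 3).

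In chondroitin sulfation, 2 of 7 genes rose, 4 fell and Chst15 was not called. Chst11 and Chst12 sulfate the fourth carbon of N-acetylgalactosamine, a main sulfate position of cartilage chondroitin along with the sixth. Chst11 rose from 67.1, 69.0 and 67.6 CPM in the wild type to 90.7, 81.6 and 90.2 CPM in the knockout (log2 fold change 0.36, SE 0.046, edgeR adjusted p = 5.11e-06). Chst12 fell from 75.2, 80.3 and 80.5 CPM to 64.5, 71.4 and 67.9 CPM (−0.21, SE 0.047, edgeR adjusted p = 0.00116). Neither gene's groups overlapped, and the FPKM ratio of Chst11 to Chst12 went from 0.227 ± 0.00714 in the wild type to 0.340 ± 0.0358 in the knockout. Chst12 stayed the most abundant sulfotransferase of this step per length, with 49.4% ± 1.56 of the step's summed FPKM in the knockout against 51.8% ± 0.792.

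Chst3 and Chst7 sulfate the sixth carbon. Both were rare: Chst3 had 169, 156 and 120 counts in the knockout and 95, 67 and 107 counts in the wild type, or 5.81, 4.41 and 3.99 CPM against 2.23, 1.59 and 2.48 CPM. Its groups did not overlap and it rose 2.25-fold (log2 fold change 1.17, SE 0.202, edgeR adjusted p = 1.16e-04). Chst7 fell by 0.35 (SE 0.131, edgeR adjusted p = 0.0291), with 4.19 to 5.50 CPM in the knockout and 5.82 to 6.28 CPM in the wild type. The call of Chst7 was lost in DESeq2 (adjusted p = 0.0842) and without CRE2 (edgeR adjusted p = 0.0943), CRE3 (0.126), wild-type library 2 (0.0850) or wild-type library 3 (0.0663). Per length Chst3 remained the lowest of the step, at 0.191 FPKM in the knockout against 0.098 FPKM. The ratio of Chst11 to Chst3, a fourth-carbon against a sixth-carbon enzyme, was 52.1, 61.7 and 75.4 in the knockout and 100.5, 145 and 91.0 in the wild type. Each is the less abundant enzyme of its position per length. Chst12 stood at 34.7 FPKM in the knockout against 46.4 FPKM, and Chst7 at 2.01 against 2.96 FPKM. This ratio therefore does not give the balance between the positions. Ust, which sulfates the uronic acid, fell from 19.3, 19.1 and 19.6 CPM to 12.4, 11.4 and 11.2 CPM (−0.73, SE 0.073, edgeR adjusted p = 3.35e-07). Chst14, which sulfates dermatan, fell by 0.17 (edgeR adjusted p = 0.00712). Chst15, which adds a further sulfate to sulfated N-acetylgalactosamine, had a log2 fold change of −0.21 (SE 0.097, edgeR adjusted p = 0.0712) with groups that did not overlap. It was called lower in 6 of 18 other settings, among them upper-quartile factors (−0.30, edgeR adjusted p = 0.0133), total counts alone (−0.42, 0.00137) and without CRE3 (−0.27, 0.0383).

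The heparan chain step held the largest rise of any chain-building enzyme in the list. Ext1 and Ext2 form the complex that polymerizes heparan sulfate. Ext1 stood at 283, 278 and 276 CPM in the knockout and 110.1, 110.3 and 113 CPM in the wild type. Each knockout library was more than 2.4-fold above each wild-type library, and the fitted rise was 2.51-fold (log2 fold change 1.33, SE 0.032, edgeR adjusted p = 7.49e-15). Ext2 rose less, from 191, 193 and 192 CPM to 241, 231 and 232 CPM (0.29, SE 0.031, edgeR adjusted p = 8.28e-07). Per length the ratio of Ext1 to Ext2 went from 0.863, 0.855 and 0.876 in the wild type to 1.76, 1.80 and 1.78 in the knockout, so that Ext1 passed its partner in all 3 knockout libraries.

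Extl3, which adds the N-acetylglucosamine that starts a heparan chain, rose from 93.9, 95.7 and 92.4 CPM to 129, 114 and 118 CPM (log2 fold change 0.35, SE 0.046, edgeR adjusted p = 5.86e-06). Extl2, a related transferase that can end a growing chain on the phosphorylated linker, fell from 61.0, 58.3 and 60.0 CPM to 48.2, 47.8 and 45.1 CPM (−0.35, SE 0.046, edgeR adjusted p = 7.67e-06). The groups of both genes were separate, and the ratio of Extl3 to Extl2 per length went from 0.924 ± 0.0341 to 1.5 ± 0.0921. Glce, the epimerase that makes iduronic acid in heparan sulfate, fell from 52.5, 55.7 and 51.3 CPM to 38.3, 38.7 and 42.8 CPM (−0.41, SE 0.054, edgeR adjusted p = 6.85e-06). In this step, then, the polymerase genes and Extl3 rose while Extl2 and the epimerase fell. Of the genes that start a chain, Csgalnact1 of the chondroitin branch fell and Extl3 of the heparan branch rose. Csgalnact2 was not called with TMM factors and was called lower with total counts alone.

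In heparan sulfation and desulfation, 5 of 7 genes rose and 2 fell, and Sulf1 had the largest change of all 38 genes. Sulf1 and Sulf2 are secreted sulfatases that remove the sulfate at the sixth carbon of glucosamine from finished heparan sulfate and so alter its binding of growth factors. Sulf1 stood at 999, 996 and 991 CPM in the knockout and 297, 296 and 299.7 CPM in the wild type, a rise of 3.34-fold (log2 fold change 1.74, SE 0.025, edgeR adjusted p = 2.99e-17). Sulf2 stood at 172, 163 and 161 CPM in the knockout and 201, 205 and 199.9 CPM in the wild type, a fall of 1.22-fold (−0.29, SE 0.035, edgeR adjusted p = 2.97e-06). The sulfatases were level per length in the wild type, with Sulf1 to Sulf2 ratios of 1.00, 0.979 and 1.01. In the knockout the ratios were 3.93, 4.14 and 4.16. Sulf1 took 67.1% ± 0.474 of the summed FPKM of this step in the knockout against 37.2% ± 0.414.

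Of the 5 listed enzymes that add sulfate, 4 rose and 1 fell, each by less than Sulf1. Ndst1 and Ndst2 replace acetyl groups by sulfate on glucosamine, the first modification of the chain. Ndst1 rose from 132, 134 and 128 CPM to 176, 159.8 and 167 CPM (log2 fold change 0.35, SE 0.040, edgeR adjusted p = 1.36e-06). Ndst2 fell by 0.15 (edgeR adjusted p = 0.0157), a call that was lost in DESeq2 (adjusted p = 0.0781) and without CRE1 (edgeR adjusted p = 0.0537), CRE3 (0.0550) or wild-type library 2 (0.0555). The ratio of Ndst1 to Ndst2 per length went from 1.06 ± 0.0291 to 1.51 ± 0.119. Hs6st1, which adds the sixth-carbon sulfate that the sulfatases remove, rose from 18.8, 17.9 and 18.3 CPM to 27.9, 26.0 and 29.2 CPM, or 1.51-fold (0.59, SE 0.064, edgeR adjusted p = 7.63e-07). Its alternative Hs6st2, outside the list, fell (−0.41, SE 0.055, edgeR adjusted p = 9.01e-06). Per length Hs6st2 stood at 29.9 FPKM in the wild type and 19.5 FPKM in the knockout, against 5.30 and 6.92 FPKM for Hs6st1. The more abundant enzyme therefore fell, and the rise of Hs6st1 does not give the direction of this step. Hs2st1, which sulfates the uronic acid, rose by 0.21 with TMM factors (edgeR adjusted p = 2.30e-04) but had a value of −0.0034 with total counts alone (adjusted p = 0.940). Hs3st1, which adds a rare sulfate needed for binding antithrombin, had 85, 112 and 84 counts in the knockout and 52, 83 and 40 in the wild type. On the CPM scale its knockout values of 2.79 to 3.16 lay above its wild-type values of 0.926 to 1.97 (log2 fold change 1.11, SE 0.257, edgeR adjusted p = 0.00146).

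**Figure D3:**
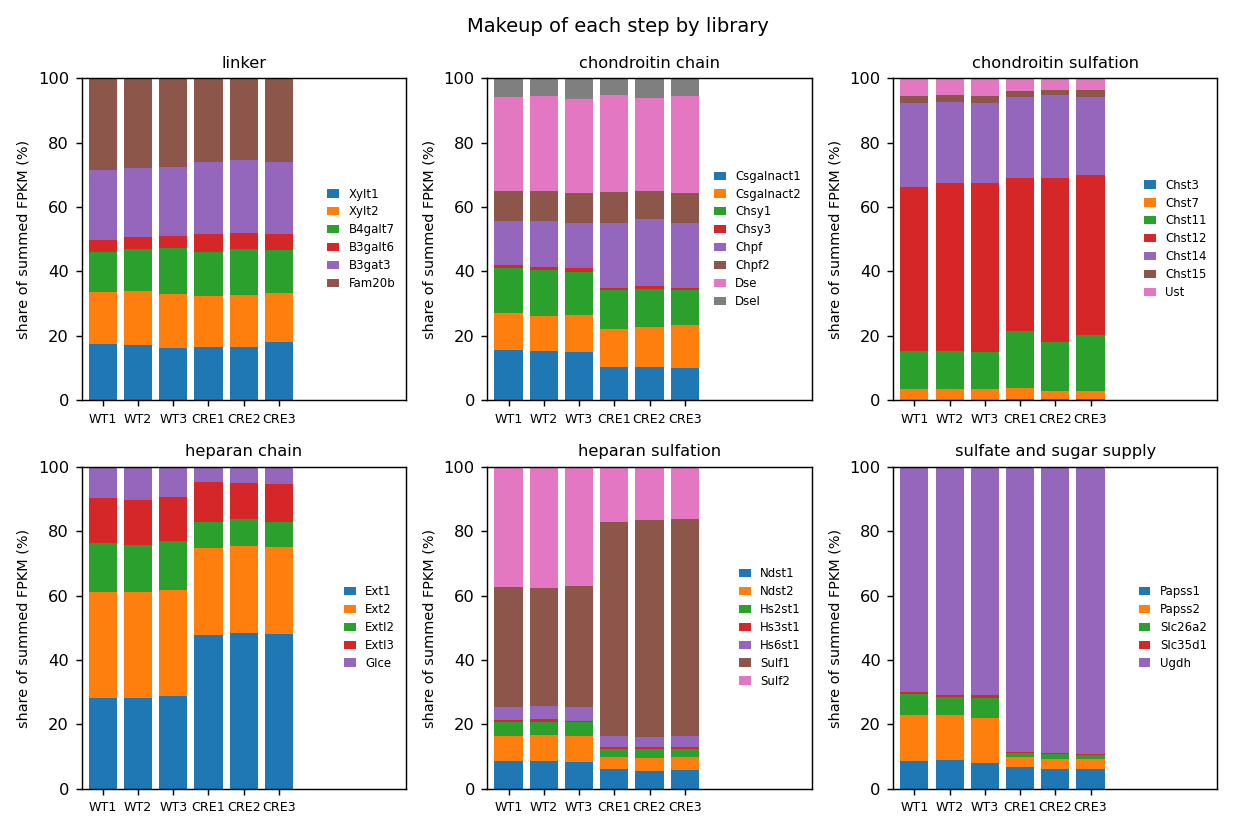
Share of each gene in the summed FPKM of its step (y axis, %), for 3 wild-type (WT) and 3 knockout (CRE) libraries, with 1 panel for each of the 6 steps. The makeup of the linker step looks alike in both groups, while Ext1, Sulf1 and Ugdh take larger shares of their steps in every knockout library.

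Over the 13 pairs of enzymes compared within a library, the ratio was higher in all 3 knockout libraries in 7 pairs, lower in all 3 in 3 pairs and overlapping in 3 pairs. The largest shifts were those of Sulf1 over Sulf2 (4.08-fold, or 2.03 on the log2 scale), Papss2 over Papss1 (3.40-fold lower, −1.77), Chst3 over Chst7 (2.91-fold, 1.54) and Ext1 over Ext2 (2.06-fold, 1.04). In each of the 10 separated pairs the two-sided exact permutation p was 0.10, the smallest that 3 against 3 libraries can give, and 0.13 after adjustment over the 13 pairs. No pair could therefore pass a threshold of 0.05 in this design. The overlapping pairs were Xylt1 over Xylt2, Chsy1 over Chsy3 and Dse over Dsel, with differences of 0.083, 0.36 and 0.12 on the log2 scale (exact permutation p = 0.50, 0.20 and 0.30).

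**Figure D4:**
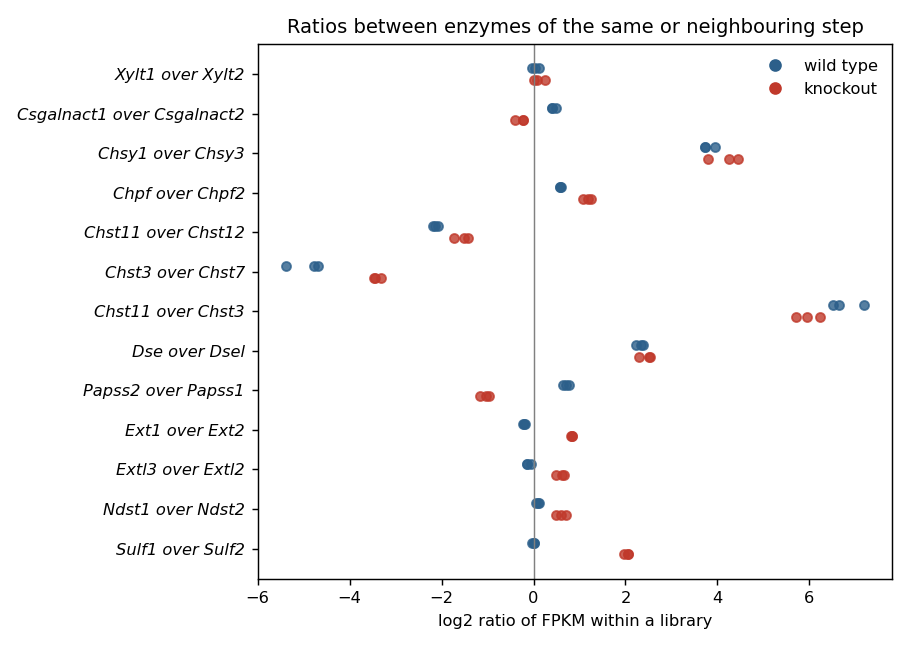
Log2 ratio of FPKM (x axis) between the genes of 13 pairs (y axis) in each library, with wild type in blue and knockout in red. The groups are apart in 10 pairs, and the Sulf1 over Sulf2 ratio lies near 0 in the wild type and near 2 in the knockout.

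Reads of all 38 genes made up 0.396% ± 0.00396 of a knockout library and 0.330% ± 0.000634 of a wild-type library (SD, n = 3). Sulf1, Ugdh and Ext1 were then left out after their values were seen, and no gene that fell was left out with them. This choice by itself lowers the knockout share relative to the wild type. Without them, the other 35 genes made up 0.208% ± 0.00256 and 0.253% ± 0.0011. These shares are of raw counts, and scaling moves them: with TMM factors the 35 genes summed to 2235 ± 39.9 CPM against 2354 ± 9.43 CPM (knockout against wild type, SD, n = 3), a ratio of 0.949. All 38 summed to 4262 ± 57.0 against 3071 ± 1.03 CPM, a ratio of 1.39.

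Other genes of the pathway were taken from lists that hold none of the 38. Of 73 such genes, 63 were tested, 24 rose, 23 fell and 16 were not called, with a median log2 fold change of 0.015. Of those tested, 38.1% rose and 36.5% fell, not far from the 30.7% and 32.1% of all tested genes. Of 14 other supply genes, 7 rose and 3 fell, and the clearest calls were rises of Ugp2, which makes the UDP-glucose that Ugdh uses (0.66), and of Gfpt2 (1.19) and Uap1 (0.59), of the path to UDP-N-acetylglucosamine. Of 6 tested genes among the other linker and heparan enzymes, 1 rose and 3 fell. Extl1 fell from 198, 149 and 159 counts to 30, 29 and 21 counts, and Hs6st2, the alternative enzyme to Hs6st1, fell by 0.41. The sulfotransferase gene Hs3st6 rose from 2, 3 and 6 counts to 97, 117 and 76 counts (edgeR adjusted p = 9.83e-09). Of 16 genes that break the chains down, 3 rose and 8 fell, with the lysosomal enzymes Ids (−0.74) and Gusb (−0.62) lower. Of 6 tested genes of keratan sulfate synthesis, 2 rose and 3 fell, with B3gnt2 (−0.62) and Chst2 (−0.59) lower and Chst1 (1.23) higher.

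The core proteins that carry the chains were also listed. Among 8 tested carriers of chondroitin or dermatan sulfate, 3 rose and 4 fell (37.5% and 50%, beside 30.7% and 32.1% of all tested genes). Acan, the large cartilage proteoglycan, fell from 352 ± 17.9 to 49.0 ± 1.55 CPM, Vcan rose from 292 ± 7.34 to 937 ± 95.8 CPM, and Dcn rose from 2048 ± 46.6 to 6566 ± 226 CPM (SD, n = 3). Among 13 tested carriers of heparan sulfate, 8 rose and 2 fell (61.5% and 15.4%), with Sdc4 (1.27), Agrn (1.16) and Gpc1 (0.83) higher. Acan also stands on the list of chondrocyte markers and Cspg4 on that of pericytes, so those lists are not independent of these counts.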

How the data were processed

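Total RNA was extracted with TRIzol and sequenced, per the labels' protocols. Tools listed in the submitters' processing notes are fastp, HISAT2 and HTSeq, with build GRCm39. Strand and annotation were not given in the sources used here. Deposited by the authors were whole-number read counts and FPKM values for 23867 gene symbols in 6 columns. In the 12594 genes with at least 20 counts in every column, each deposited FPKM equals the count over the column total and 1 length per gene, within 1e-06. Columns of the wild type matched sample titles by name, and the knockout columns matched only their group.

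The test on counts was the two-sided quasi-likelihood test of edgeR 4.0.16 (R 4.3.3, TMM, group alone, filterByExpr with a minimum count of 10), adjusted over all 15028 tested genes. SEs are the log2 fold change over the root of F. Levels between genes are compared in FPKM. Other settings used DESeq2 1.42.0, limma 3.58.1 and other scalings, filters and libraries. The genes, lists and pairs were chosen with earlier results of these data known. All 38 genes are described, with the 3 smallest p of each other pathway list, Acan, Dcn, the most abundant marker of each cell type, and Mfn2, except that one item is not reported here. Counts were also simulated over 14840 genes, most of them unchanged, with equal rises and falls and no scaling shift between the groups. The test recovered 62%, 82%, 74% and 100% of 50 genes changed 1.25, 1.5, 2 and 4-fold. Unchanged genes were 8.09% of the calls. In the data 62.7% of tested genes were called and scaling moved the calls, so these rates need not hold there. Every pair of replicate libraries differed beyond sampling noise (chi-square per degree of freedom 3.19 to 8.09). The spread was still small, with a common coefficient of variation of 4.88% between replicates in edgeR. What the libraries replicate, animals or cultures, is not stated. Near-identical or overlapping genes have uncertain separate counts.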

Additional observations from a re-analysis of the deposited data

How the results depend on the processing

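Across 18 other settings, 24 of the 38 genes kept their direction and their side of the threshold in all 18, and Chst3 and Hs3st1 did so in the 16 that tested them, while the 14 rises became 10 to 14 and the 20 falls 16 to 24. Csgalnact2 turned lower with upper-quartile factors (−0.081), where it was not called. It was called lower with total counts alone (−0.20), limma on log2(FPKM + 1) (−0.19 with and without a filter) and on log2(FPKM + 0.1) (−0.20). With a library left out it ranged from −0.029 to 0.048. Hs2st1 stood at −0.0034 with total counts alone, −0.0031 on log2(FPKM + 1) with and without a filter and −0.0037 on log2(FPKM + 0.1). With a library left out, Tek ranged from −0.31 to 0.12 and Acta1 from 0.11 to 0.75. The rises over all genes, 4607 in the main test, numbered 2789 with total counts alone, 2354 on log2(FPKM + 1), 2345 on log2(FPKM + 0.1) and 2706 without a filter, and the 4823 falls numbered 7627 with total counts alone and 7328 on unfiltered log2(FPKM + 1). In the linker step, rises went from 1 to 0 and falls from 3 to 5 with upper-quartile factors, total counts alone and the 3 FPKM fits, and rises were 0 to 1 with a library left out (0 without CRE1). With log2(FPKM + 1) and log2(FPKM + 0.1) over genes that average 1 FPKM or more, rises were 1 in chondroitin sulfation and 3 in heparan sulfation, where Chst3 and Hs3st1 did not pass that filter and Hs2st1 was not called. Falls in heparan sulfation were 1 in DESeq2, and 1 to 2 with a library left out (1 without CRE1, CRE3 or wild-type library 2). The rise of Extl3 was lost on unfiltered log2(FPKM + 1). Apart from these, the cause of a change between settings was not tested. Same-numbered libraries correlated at −0.086, 0.055 and −0.095 after each group's mean was taken off. With 3 libraries centred in each group, these values cannot show or exclude a pairing by number. CRE2 correlated best with its own number, and CRE1 and CRE3 did not. With the number as a replicate block 14 genes rose and 19 fell, 4437 and 4657 over all genes. Counts as low as 40, in Hs3st1, limit the rarer genes.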
